A study of Mus musculus with 4 samples.

Results

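The response of the heart to aortic constriction in mice labelled as knockouts of WW45, the Hippo pathway scaffold listed under its gene symbol Sav1, was described from 1 pair of libraries. They are the library labelled WW45cKO TAC and the library labelled WW45cKO at baseline, 2 of the 4 libraries of the study, and all 12408 listed genes were compared between them. Each library was RNA sequencing of the heart of 1 C57BL/6 mouse aged 3 months. Mice of both genotypes carried WW45 alleles with loxP sites (flox/flox). Those labelled WW45cKO also carried a Cre recombinase under the alpha-MHC promoter, which acts in cardiomyocytes, so other heart cells keep the gene. TAC is transverse aortic constriction, a band tied by surgery around the aortic arch against which the left ventricle must pump, and lasted 4 weeks. The other pair, labelled CT, has no Cre in its labels and serves here to show where the response differed. No sham-operated library was analysed here, so the operation and the load cannot be told apart. With 1 mouse per group no spread between mice was measured, no p-value is given, and every difference is one between libraries.

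Hippo kinases, held together by Sav1, phosphorylate the coactivator YAP and keep it out of the nucleus, where it would bind TEAD factors and turn on genes of growth and matrix. A heart under pressure load is known to thicken, to switch on fetal genes such as natriuretic peptides, and to lay down matrix from activated fibroblasts. Secreted and membrane proteins fold in the endoplasmic reticulum (ER), whose chaperones are raised by the unfolded protein response when unfolded protein builds up there.

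Levels are in CPM, reads scaled to library size, and 1 read was worth 0.612 CPM in the library labelled WW45cKO at baseline and 0.544 in that labelled WW45cKO TAC. These libraries held 1587840 and 1772153 reads, and the CT libraries held 2796547 at baseline and 2064655 after TAC. Where 2 values follow a gene's name, the first is at baseline and the second after TAC. Positions in brackets are gene spans of RefSeq on GRCm38.p6, the mm10 assembly. The log2 ratio is the deposited log2 value after TAC minus that at baseline. It understates the difference of genes with few reads, because 1 read had been added to each. Ratios of reads carry a 95% counting interval, which covers counting error only (PCR copies of a molecule are counted as separate reads). To be called, a gene had to be at least 2-fold apart in the deposited values, with an interval that left out 1. A gene with 30 reads at baseline, the median, was called higher from 69 reads after TAC and lower at 16 or fewer. In this pair 457 of 12408 genes were called higher after TAC (3.68%) and 351 lower (2.83%), together 808 (6.51%). The pair labelled CT gave 750 higher (6.04%) and 580 lower (4.67%). The response of a gene was called different between the pairs when the difference of its log2 ratios was at least 2-fold with a counting interval that excluded 0, which 494 genes met upward in WW45cKO (3.98%) and 573 downward (4.62%). The median log2 ratio of all genes was -0.00, and the middle 50% lay between -0.37 and 0.39. Sav1 (chr12:69965009-69988141), the targeted gene, had 39.8 and 46.2 CPM in the pair labelled WW45cKO (intervals 30.7 to 50.7 and 36.9 to 57.2) and 49.3 and 35.4 CPM in the pair labelled CT (41.3 to 58.4 and 27.7 to 44.7). It was thus not lower in the library labelled WW45cKO TAC than in that labelled CT TAC, and the gene's total cannot show whether the floxed exons were lost, so genotypes are given as labelled.

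Several groups of extracellular matrix genes had many members higher after TAC in the pair labelled WW45cKO, led by the matricellular proteins Angptl7, Wisp2 and Thbs4 and with 8 of 14 fibrillar and fibril-associated collagens called, whereas of 19 basement membrane collagens and laminins 1 was called. Chaperones and folding enzymes of the ER were lower, with 11 of 26 called and Hyou1, Manf and Pdia4 at 0.203 to 0.208 of their baseline level. Of 21 chemokines and cytokines 5 were lower, among them Ccl2, Ccl7 and Cxcl13, and 2 were higher. Natriuretic peptide Nppa was 3.19-fold higher, while Ankrd1, Acta1, Nppb and Myh7 were not called. Genes of the respiratory chain, the TCA cycle and the proteasome gave no calls.

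**Figure D1:**
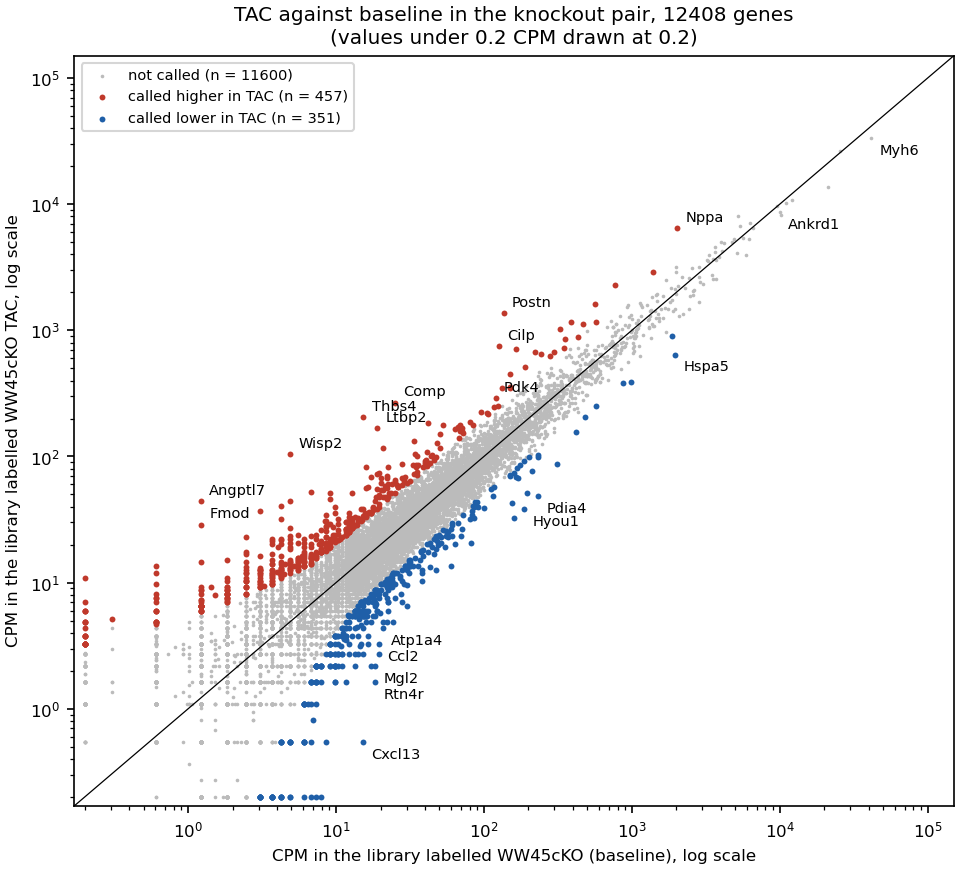
Each point is 1 of 12408 genes, with its CPM in the library labelled WW45cKO at baseline on the x axis and in the library labelled WW45cKO TAC on the y axis, both on log scales. The 457 genes called higher after TAC are red, the 351 called lower are blue, and the diagonal marks equal levels.

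Of the gene lists, that of ER chaperones and folding enzymes had the most members called lower, 11 of 26 measured and 0 higher, beside 2.83% of all genes called lower. Its median log2 ratio was -0.75, and the summed level of its members was 6667 and 3204 CPM at baseline and after TAC, a ratio of 0.481 (interval 0.466 to 0.496). In the pair labelled CT the summed levels were 3681 and 4309.9 CPM, the median was 0.28, none of the 26 was called lower and 1 was called higher. The response itself was called lower in WW45cKO than in CT for 11 of the 26, beside 4.62% of all genes.

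Several of these genes carry in their promoters the ER stress response element (ERSE), the sequence CCAAT and CCACG separated by 9 bases, which the unfolded protein response factors ATF6 and XBP1 are known to use. The promoters of the 5 called chaperones that held it are printed from RefSeq (build GRCm38.p6), 250 bases before to 50 after the gene start, with that of Canx, which held it and was not called. Capitals mark the element. On the other strand it reads CGTGG, 9 bases, ATTGG.
Hspa5: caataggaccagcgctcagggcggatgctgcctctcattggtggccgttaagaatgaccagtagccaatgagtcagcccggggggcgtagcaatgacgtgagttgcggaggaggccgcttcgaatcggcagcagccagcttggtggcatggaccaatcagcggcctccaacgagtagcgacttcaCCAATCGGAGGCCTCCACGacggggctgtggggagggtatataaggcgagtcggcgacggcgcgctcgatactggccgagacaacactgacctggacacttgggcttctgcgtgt
Hsp90b1: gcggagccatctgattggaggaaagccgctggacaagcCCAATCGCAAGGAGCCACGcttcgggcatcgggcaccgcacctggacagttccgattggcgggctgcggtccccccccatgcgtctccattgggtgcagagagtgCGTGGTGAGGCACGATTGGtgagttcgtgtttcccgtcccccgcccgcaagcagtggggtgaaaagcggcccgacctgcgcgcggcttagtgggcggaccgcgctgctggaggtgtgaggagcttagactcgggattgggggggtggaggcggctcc
Pdia6: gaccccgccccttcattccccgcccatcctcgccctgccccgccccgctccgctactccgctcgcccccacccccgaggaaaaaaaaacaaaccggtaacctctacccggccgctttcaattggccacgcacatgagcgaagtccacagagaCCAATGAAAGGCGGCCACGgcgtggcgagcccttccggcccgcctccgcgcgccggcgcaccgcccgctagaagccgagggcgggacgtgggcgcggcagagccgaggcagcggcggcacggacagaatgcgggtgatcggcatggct
Creld2: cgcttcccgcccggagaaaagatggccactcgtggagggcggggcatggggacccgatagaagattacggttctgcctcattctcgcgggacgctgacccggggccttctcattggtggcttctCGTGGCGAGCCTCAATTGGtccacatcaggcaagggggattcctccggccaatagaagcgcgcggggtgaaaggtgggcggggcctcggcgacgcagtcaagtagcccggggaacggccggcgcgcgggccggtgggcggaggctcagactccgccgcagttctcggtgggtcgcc
Calr: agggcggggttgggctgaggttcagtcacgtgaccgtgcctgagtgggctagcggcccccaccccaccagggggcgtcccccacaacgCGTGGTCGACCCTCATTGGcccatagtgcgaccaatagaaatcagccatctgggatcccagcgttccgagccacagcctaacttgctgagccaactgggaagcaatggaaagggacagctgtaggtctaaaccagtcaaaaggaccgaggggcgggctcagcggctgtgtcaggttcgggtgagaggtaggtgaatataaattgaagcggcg
Canx: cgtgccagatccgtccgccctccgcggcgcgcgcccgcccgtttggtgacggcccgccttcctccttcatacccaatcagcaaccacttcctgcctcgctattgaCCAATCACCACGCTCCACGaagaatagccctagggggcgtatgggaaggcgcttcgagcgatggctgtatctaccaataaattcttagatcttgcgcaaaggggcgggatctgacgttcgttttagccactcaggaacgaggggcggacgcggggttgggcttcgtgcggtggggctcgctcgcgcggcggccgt
These windows lie at chr2:34771840-34772139 (plus strand), chr10:86705395-86705694 (minus), chr12:17266339-17266638 (plus), chr15:88819396-88819695 (plus), chr8:84846882-84847181 (minus) and chr11:50325624-50325923 (minus). Counted from the gene start, the element stood at -65 to -47 in Hspa5, -98 to -80 in Pdia6, -126 to -108 in Creld2, -162 to -144 in Calr and -145 to -127 in Canx. Hsp90b1 held it at 2 places, -212 to -194 and -107 to -89.

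Of the 26 genes, 20 had an entry among the promoters. Hyou1 and Manf had none, so their promoters were not searched, which left 9 of the 11 called lower. Of the 20, 7 held the element, the seventh being Dnajc3. Over all 32851 promoters the share was 0.119%, and among the 9522 listed genes with an entry 16 held it (0.168%). Of those 16 genes, 6 were called lower after TAC in the pair labelled WW45cKO (37.5%), the 5 chaperones and the ER-associated degradation ligase Syvn1, and none was called higher. Their median log2 ratio was -0.93 in this pair and -0.16 in the CT pair. The 9 of them outside the chaperone list had 1 called lower, Syvn1, and a median of -0.30, beside -0.50 in the CT pair. Among 9498 listed genes whose promoters held neither this element nor the related ERSE-II, 2.82% were called lower. ERSE-II (ATTGG, 1 base, CCACG, sharing the CCACG letters with ERSE) stood in 0.0365% of promoters and in 1 of the 20, that of Dnajb11, which was not called. Other letters searched on both strands were CACGTG (in 7.15% of promoters), which can overlap CCACG, the cyclic AMP element TGACGTCA (1.79%), the TEAD site CATTCC (14.7%), TGATGCAAT (0.192%) and TGATGAAAC (0.247%), and the heat shock element (0.603%). They were found in 3, 0, 2, 0, 1 and 0 of the 20. A match describes letters in the window, not a site in use.

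Hspa5 (chr2:34772090-34776529), the BiP chaperone that binds unfolded proteins and holds the stress sensors inactive, had 3209 reads at baseline and 1179 after TAC, or 1963 and 641 CPM. Its ratio was 0.327 (interval 0.305 to 0.349). The CT libraries had 1083 and 968 CPM, so the WW45cKO baseline library was the highest and the WW45cKO TAC library the lowest of the 4. Hsp90b1, an abundant chaperone of the same lumen, had 1606 and 710 reads at baseline and after TAC, a ratio of 0.393 (0.359 to 0.430). This was 982 and 386 CPM in the WW45cKO pair, beside 440 and 461 CPM in the CT pair. Hyou1 (chr9:44379490-44392369), a large chaperone that exchanges nucleotide on BiP, had 306 and 70 reads, a ratio of 0.203 (0.155 to 0.264). This was 187 and 38.1 CPM in the WW45cKO pair and 68.6 and 69.4 CPM in the CT pair, where the libraries differed by a log2 ratio of 0.02. The difference between the responses was -2.31 (interval -2.80 to -1.82) on the log2 scale.

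Among protein disulfide isomerases, which form and shuffle disulfide bonds, Pdia3, Pdia4 and Pdia6 were called lower. Pdia4 (chr6:47796141-47813512) had 233 and 48.4 CPM in the WW45cKO pair, a ratio of 0.208 (0.163 to 0.262), and 74.9 and 107 CPM in the CT pair. Pdia6 had 100.3 and 39.2 CPM in the WW45cKO pair, with a log2 ratio of -1.35, and 34.1 and 69.4 CPM in the CT pair, where it was called higher (1.01). It was the 1 member called in opposite directions, and its responses differed by -2.37 (interval -2.92 to -1.82). Pdia3, named with Calr and Creld2 after their values were seen, had 931 and 466 reads and a log2 ratio of -1.17.

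Manf (chr9:106888753-106891938), a secreted protein of the ER stress response, had 261 and 60 reads at baseline and after TAC, a ratio of 0.204 (0.152 to 0.272). This was 160 and 32.6 CPM in the WW45cKO pair, beside 42.6 and 48.9 CPM in the CT pair. Calreticulin (Calr), which with Canx holds glycoproteins while they fold, had 1426 and 699 reads and a log2 ratio of -1.20, while Canx had 958 and 799 reads and a log2 ratio of -0.43. Creld2 (84 and 38 reads, log2 ratio -1.29), Sdf2l1 (23 and 5 reads, -2.18) and the prolyl isomerase Fkbp2 (17 and 7 reads, -1.34) were called with fewer reads. For Fkbp2 the response was not called different from that in CT (difference -1.49, interval -3.15 to 0.18). In all 11 called members the WW45cKO baseline library had the highest level of the 4 libraries, and in 9 of them the WW45cKO TAC library had the lowest. A gene called lower cannot be lowest at baseline. Over all 351 genes called lower the WW45cKO baseline library was the highest for 72.7% and the WW45cKO TAC library the lowest for 74.6%. The 15 members that were not called had log2 ratios between -0.98 and 0.44.

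**Figure D2:**
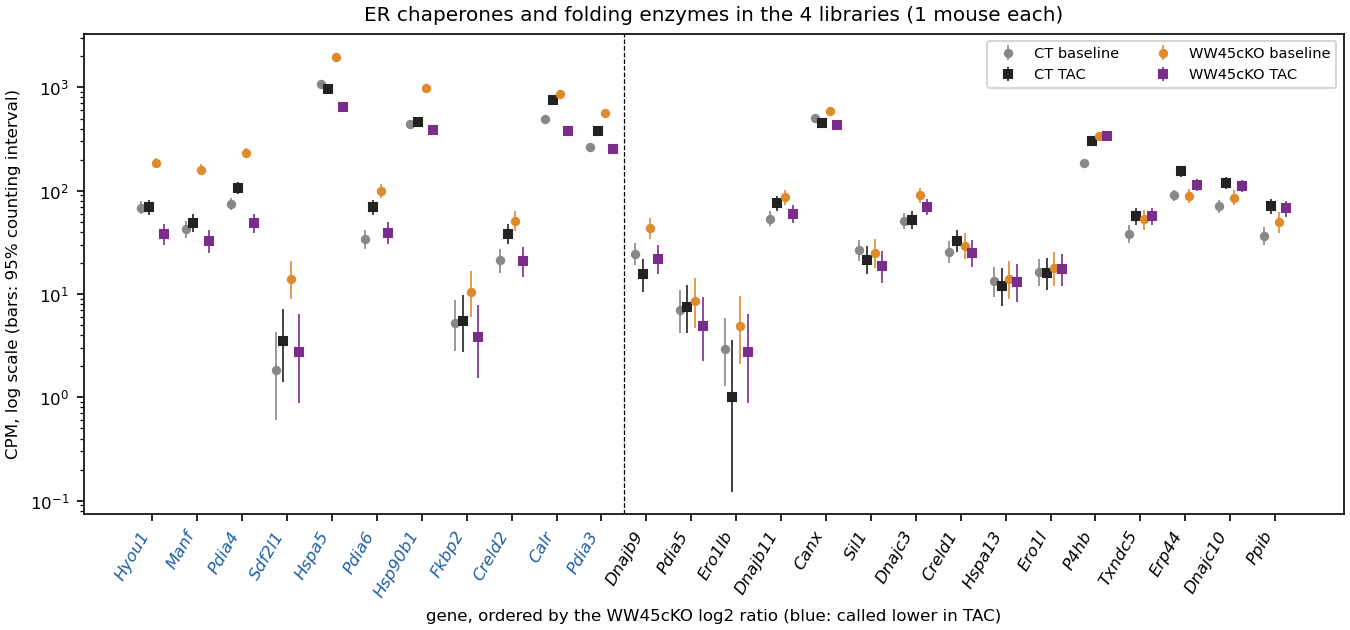
CPM on a log scale of 26 ER chaperones and folding enzymes, ordered by log2 ratio in the pair labelled WW45cKO, in each of the 4 libraries (circles baseline, squares TAC, bars 95% counting intervals). In the 11 genes with blue names, called lower, the WW45cKO baseline point stands above the other 3.

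In neighbouring stress pathways the shares called are set beside 3.68% of all genes called higher and 2.83% lower. Of 27 measured ER stress sensors and ER-associated degradation genes, 1 was called lower (Syvn1, the ubiquitin ligase HRD1, 91 and 43 reads, log2 ratio -1.23) and the list's median was -0.28. The integrated stress response and serine synthesis list had 2 higher and 2 lower of 26 (7.69% each way). Nupr1, a stress-induced nuclear protein, had 8 and 50 reads and Ddit4, an inhibitor of mTORC1, 71 and 164 reads, both called higher. The serine synthesis gene Psat1 had 11.5 and 1.5 reads and the mitochondrial folate enzyme Aldh1l2 8 and 1 reads (ratio intervals 0.0174 to 0.741 and 0.00250 to 0.829), both called lower. Psat1 had parts of reads, meaning reads shared with other places, which makes it uncertain. Cytosolic heat shock proteins had 1 higher (Hspa2) and 1 lower (Hsph1, 148 and 73 reads) of 29, and aminoacyl-tRNA synthetases had 0 called of 20. Of 41 proteasome subunits 0 were called, and 35 lay above 0, with a median of 0.33 and a summed level 1.24-fold (interval 1.21 to 1.27) that at baseline.

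Among the matrix groups, of 21 matricellular and related matrix proteins 12 were called higher and 0 lower, of 14 fibrillar and fibril-associated collagens 8 and 0, and of 9 small leucine-rich proteoglycans 5 and 0, beside 3.68% of all genes called higher. The collagens, laminins and other proteins of the basement membrane were near that share, with 1 of 19 called higher (5.26%), 0 lower, a median log2 ratio of 0.10 and a summed level 1.09-fold (interval 1.06 to 1.13) that at baseline. The 1 called was Col4a3, a chain of network-forming collagen IV, with 0 reads at baseline and 20 after TAC. Its ratio was at least 4.39 by the lower end of the counting interval. For the first 3 groups the median log2 ratios were 1.27, 1.21 and 1.18, and in the CT pair 1.84 for the first and 2.36 for the collagens. The summed level of the collagens was 1518 and 3274 CPM in the WW45cKO pair, 2.16-fold (interval 2.06 to 2.26) higher after TAC, and 604 and 3406 CPM in the CT pair. For the matricellular proteins it was 1824 and 6232 CPM in the WW45cKO pair and 980.1 and 4867 CPM in the CT pair.

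Angptl7 (chr4:148495181-148500462), a secreted angiopoietin-like protein, had 2 reads at baseline and 81 after TAC, with a ratio interval of 9.65 to 302, and in the CT libraries 0 and 22 reads. Wisp2 (chr2:163820752-163833146), a CCN family matricellular protein, had 8 and 191 reads, a ratio of 21.2 (10.6 to 49.9). Thbs4 (chr13:92751586-92794818), thrombospondin 4 of matrix and tendon, had 25 and 379 reads, a ratio of 13.5 (8.99 to 21.1). All of them were high after TAC in both pairs and low at baseline in both.

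Thbs4 had 15.3 and 206 CPM in the WW45cKO pair and 2.97 and 235 CPM in the CT pair, and its response was called smaller in WW45cKO, with a difference of -2.49 (interval -3.63 to -1.36) on the log2 scale. Comp, the related cartilage oligomeric matrix protein, had 25.1 and 268 CPM against 3.34 and 146 CPM in CT (difference -1.97, interval -3.01 to -0.94). Cilp (chr9:65265180-65280614), a cartilage intermediate layer protein that binds TGF-beta, had 127 and 753 CPM against 11.5 and 556 CPM in CT (difference -3.00, interval -3.56 to -2.45). For these 3 genes the baseline level was higher in the library labelled WW45cKO than in that labelled CT.

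Postn, periostin of activated fibroblasts, had 136 and 1368 CPM in the WW45cKO pair and 23.7 and 826 CPM in the CT pair, and its reads were partly shared with other places, so they are uncertain. Cthrc1, a secreted collagen triple helix protein, had 2 and 27 reads (ratio interval 3.02 to 104) and Spp1, osteopontin, also with shared reads, 7.4 and 26 reads. Fmod, fibromodulin, which binds collagen fibrils, had 2 and 53 reads (ratio interval 6.21 to 199.6). The intervals of Fmod and Cthrc1 span more than an order of magnitude because each had 2 reads at baseline.

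Fibril-forming collagens, the bulk of scar matrix, were higher by smaller ratios. Col1a1 (chr11:94936224-94953042) had 280.1 and 622 CPM, a ratio of 2.22 (1.99 to 2.48), beside 109 and 676 CPM in CT. Col3a1 (chr1:45311538-45349706) had 464 and 1121 CPM, a ratio of 2.42 (2.22 to 2.63), beside 109 and 1224 CPM in CT. The response of Col3a1 differed by -2.21 (interval -2.42 to -2.00) between the pairs, and that of Col1a1 by -1.49 (interval -1.73 to -1.25). For both genes the 2 TAC libraries stood near each other, and the baseline library labelled WW45cKO stood above that labelled CT. Col12a1 (log2 ratio 2.11), Col16a1 (1.94), Col8a1 (1.86), Col5a2 (1.58), Col1a2 (1.42) and Col14a1 (1.02) were the other collagens of the list called. The response was called lower in WW45cKO than in CT for 7 of the 14 collagens and higher for 0. For the 21 matricellular genes these counts were 6 and 1, beside 4.62% and 3.98% of all genes.

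**Figure D3:**
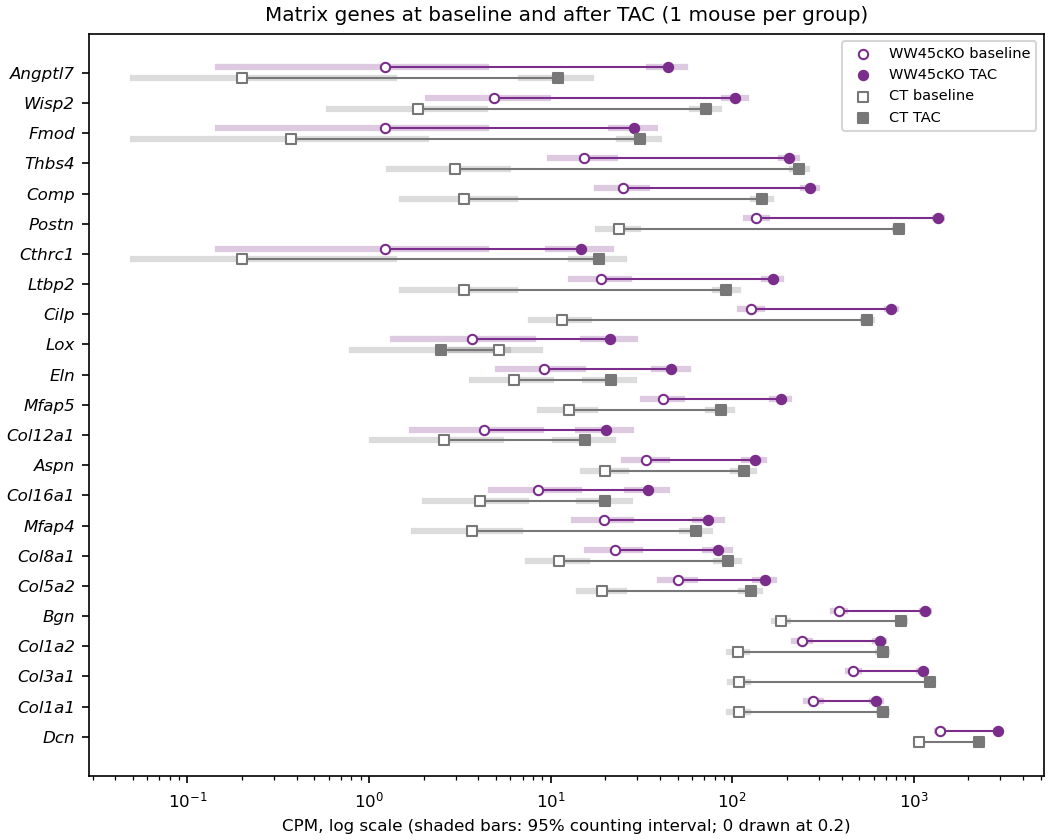
CPM on a log scale of matrix genes called in the pair labelled WW45cKO, at baseline (open) and after TAC (filled), in WW45cKO (circles) and CT (squares), with shaded 95% counting intervals and 0 drawn at 0.2. In every gene drawn except Lox the filled symbols lie to the right of the open ones in both pairs.

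Proteins that assemble elastic fibres and hold latent TGF-beta had 7 called higher and 1 lower of 16, with a median of 0.83. These shares were 43.75% and 6.25%, beside 3.68% and 2.83% of all genes. Ltbp2, a latent TGF-beta binding protein family member, had 31 and 307 reads (ratio 8.80, 6.08 to 13.2), elastin (Eln) 15 and 85 reads, and the microfibril proteins Mfap5 and Mfap4 68 and 341 reads and 32 and 136 reads. The exception was Efemp1, fibulin 3, with 10 reads at baseline and 0 after TAC. Its ratio was at most 0.397 by the upper end of the counting interval. Among the small proteoglycans, decorin (Dcn) had 1392 and 2919 CPM and biglycan (Bgn) 388 and 1157 CPM, both called higher in both pairs.

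Collagen processing gave a split result, with 4 called higher and 1 lower of 22 (18.2% and 4.55%, beside 3.68% and 2.83% of all genes). Lysyl oxidase (Lox), which crosslinks collagen and elastin, had 6 and 39 reads (ratio 5.78, 2.43 to 16.7), whereas in the CT pair it had 14 and 5 reads and was not called. The responses of Lox differed by 3.40 (interval 1.55 to 5.26). Loxl3, P3h2 and Adamts2 were also called higher. Serpinh1 (HSP47), the ER chaperone that is specific to collagen, had 233 and 99.5 CPM and was called lower (ratio 0.427, 0.356 to 0.511), while in the CT pair it had 117 and 193 CPM. Its responses differed by -1.94 (interval -2.28 to -1.61), so in the pair labelled WW45cKO this chaperone was lower while 8 collagens were higher.

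Among matrix proteases and inhibitors 7 of 27 were called higher (25.9%, beside 3.68% of all genes) and 0 lower. Mmp2, a gelatinase, had 149 and 350.2 CPM and was higher by a similar log2 ratio in both pairs (1.23 and 1.41). Timp1, an inhibitor of metalloproteases, had 64.8 and 100.1 CPM and was not called (0.62), while in the CT pair it was (2.56). Its reads were partly shared. In the TGF-beta superfamily list, 4 of 26 were called higher (15.4%), Ltbp2 among them, with the inhibitory Smad7 (11 and 37 reads), Fstl1 and Tgfbi. In the Wnt list 6 of 21 were called higher (28.6%) and 0 lower. Of these, 4 were secreted Wnt binders or antagonists: Dkk3 (1 and 18 reads, ratio interval 2.53 to 667), Sfrp2 (7 and 41 reads), Sfrp1 and Frzb. The other 2 were the ligand Wnt11 (shared reads) and the receptor Fzd2 (7 and 24 reads).

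Markers of cell types were read beside these groups. Of 10 activated fibroblast markers 7 were called higher, beside 3.68% of all genes, with a median of 2.84. The CT pair had 8 higher, beside 6.04% of all genes, with a median of 4.85. The summed level of these markers was 1064 and 3644 CPM in the WW45cKO pair and 351 and 2301 CPM in the CT pair. Of 10 fibroblast markers 6 were called higher, with a median of 1.11, among them Tcf21 (14 and 47 reads) and Pdgfrl (7 and 40 reads). In the CT pair 7 fibroblast markers were called higher, also with a median of 1.11. These lists share genes such as Col1a1, Dcn, Postn and Thbs4 with the matrix lists, so they are not separate counts. In bulk tissue, more cells of a type and more RNA per cell cannot be told apart. The cardiomyocyte markers were abundant in both libraries, as the labelled tissue requires, with 0 of 8 called, a median of -0.18 and a summed level of 107528 and 95188 CPM, or 11.1% and 9.88% of the reads. Endothelial and mural markers had 0 called of 10 and of 12, with medians of 0.06 and 0.05. Of the valve and cartilage-like markers 4 of 10 were measured, and 3 were called higher (Comp, Fmod and Sox9, the last with 4 and 19 reads). The same 3 were called higher in the CT pair. The defining markers Chad and Acan were not among the listed genes. Erythroid markers had 0 called of 7, a median of 0.52 and a summed level of 3107 and 4442 CPM in the WW45cKO pair and 2178 and 1476 CPM in the CT pair. The part of these cell types in the matrix result was not tested.

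**Figure D4:**
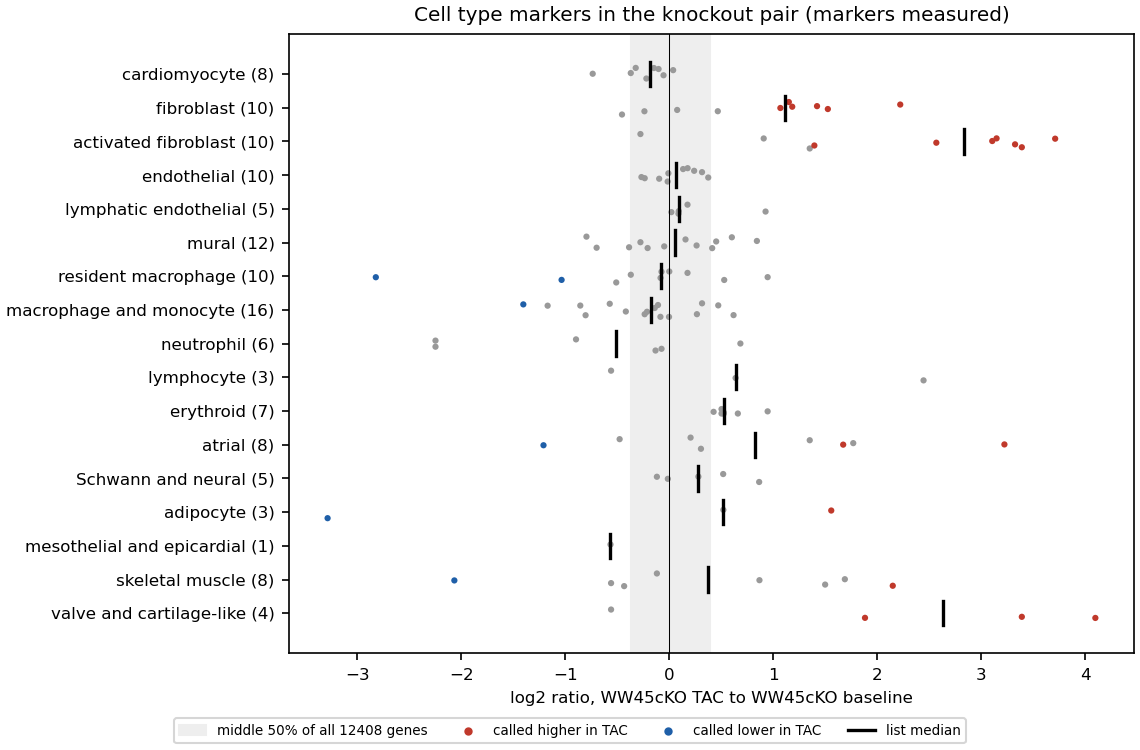
Log2 ratio after TAC to baseline in the pair labelled WW45cKO for each marker gene (1 point a gene, number measured in brackets), by cell type, with list medians as black bars and the middle 50% of all genes shaded. The 7 called activated fibroblast markers lie above 1 and the endothelial markers lie between -0.27 and 0.37.

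Stress and fetal genes of cardiomyocytes gave 2 calls among 21 in the pair labelled WW45cKO, both higher (9.52%, beside 3.68% of all genes). In the CT pair 9 were higher, beside 6.04% of all genes. Nppa (chr4:148000722-148002074), which encodes atrial natriuretic peptide, had 2035 and 6487 CPM in the WW45cKO pair, a ratio of 3.19 (3.07 to 3.31), and 129 and 3594 CPM in the CT pair. Rcan1, a calcineurin target and inhibitor, was the other (55 and 133 reads, log2 ratio 1.09). Nppa is also made in atria, and of 8 measured atrial markers 2 were called higher (Nppa and Dkk3) and 1 lower (Stard10), while the atrial markers Myl7 and Sln were not among the listed genes. The atrial share of the tissue was not tested.

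Ankrd1, an ankyrin repeat protein of the sarcomere and a YAP target, had 9962 and 8624 CPM in the WW45cKO pair, a log2 ratio of -0.21, and 827 and 8081 CPM in the CT pair (3.29). Skeletal alpha-actin (Acta1) had 1976 and 2906 CPM in the WW45cKO pair, with a log2 ratio of 0.56, and 661 and 9347 CPM in the CT pair (3.82). B-type natriuretic peptide (Nppb, shared reads) had 949 and 1602 CPM and 171 and 1066 CPM, and Gdf15, a stress cytokine, 29.4 and 26.1 CPM and 2.59 and 12.5 CPM. For Ankrd1, Nppb and Gdf15 the WW45cKO baseline library already stood near or above the CT library after TAC, whereas for Acta1 the CT TAC library stood above the other 3. The response was called lower in WW45cKO than in CT for 10 of the 21 and higher for 0, beside 4.62% and 3.98% of all genes. The slow myosin heavy chain Myh7 (0.62) and the fast one Myh6 (-0.32) were not called in either pair.

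Contractile genes were called about as often as all genes (3.68% higher and 2.83% lower). In the sarcomere and Z-disc list 1 of 31 was called higher and 1 lower (3.23% each way). The former was Pdlim3, an actinin-associated LIM protein, with 5 and 68 reads (ratio interval 4.94 to 38.4), beside 38 and 24 reads in CT. The latter was Lmod3, a leiomodin that nucleates thin filaments, with 210.4 and 76.7 CPM in the WW45cKO pair (ratio 0.364, 0.297 to 0.445) and 92.7 and 261 CPM in the CT pair. In calcium handling, Hrc, a calcium-binding protein of the sarcoplasmic reticulum, was called lower (1855 and 907 CPM, ratio 0.489), and 0 of 23 were higher. The pump Atp2a2 (shared reads, -0.63) and the release channel Ryr2 (-0.74) were not called, and in CT had log2 ratios of -0.98 and -0.80. The summed level of the calcium list was 34361 and 23722 CPM, a ratio of 0.690 (0.682 to 0.699), and 43748 and 25054 CPM in the CT pair. Atp2a2 alone had 21077 and 13658 CPM in the WW45cKO pair, so it weighs most in the sum. The list's median log2 ratio was -0.30, and -0.31 in the CT pair.

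Of 29 potassium and sodium channel genes 2 were called higher (6.90%) and 4 lower (13.8%, beside 2.83% of all genes), with a median of -0.48. The CT pair had 2 higher and 9 lower, beside 6.04% and 4.67% of all genes, with a median of -0.66. Lower were Kcnj5 (45 and 15 reads), a subunit of the inward rectifier gated by G proteins, the pacemaker channel Hcn2 (100 and 43 reads), the background channel Kcnk3 (276 and 125 reads) and Kcnq1 (78 and 43 reads), the pore of the slow delayed rectifier. Its auxiliary subunit Kcne1 was called higher (5 and 23 reads). The other gene called higher was Lrrc52 (chr1:167445675-167466780), an auxiliary subunit of large-conductance potassium channels, with 4 and 32 reads in the WW45cKO pair and 264 and 5 reads in the CT pair. The CT baseline library stood far above the other 3 for Lrrc52. In the CT pair Kcnk3 was called lower too (540 and 135 reads), and Kcne1 higher (5 and 20 reads). Among cardiac transcription factors 0 of 22 were called, with a median of -0.32 and 17 below 0. The CT pair had 7 of them called lower and 0 higher, with a median of -0.27.

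Among genes of energy metabolism, of 37 complex I genes, 28 genes of complexes II to IV with cytochrome c, 17 ATP synthase genes and 26 TCA cycle genes 0 were called, and their medians lay between -0.15 and 0.04. Of 42 genes of fatty acid uptake and oxidation 2 were called higher and 2 lower (4.76% each way, beside 3.68% and 2.83% of all genes), with a median of -0.21. The CT pair had 0 higher and 12 lower, beside 6.04% and 4.67% of all genes, with a median of -0.68. The response was called higher in WW45cKO than in CT for 9 of the 42 and lower for 1, beside 3.98% and 4.62% of all genes.

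Pdk4 (chr6:5483351-5496278), the kinase that shuts pyruvate dehydrogenase and so favours fat over sugar as fuel, had 119.9 and 290.4 CPM in the WW45cKO pair, a ratio of 2.42 (2.05 to 2.87), and 482 and 117 CPM in the CT pair. Its responses differed by 3.31 (interval 3.01 to 3.62). Fabp4, a fatty acid carrier of capillaries and fat cells, had 774 and 2279 CPM and 1289 and 2091 CPM. The fat cell markers Adipoq and Plin1 were not among the listed genes. The lipid hydrolase Ces1d had 252 and 78 reads in the WW45cKO pair and 716 and 68 reads in the CT pair, lower after TAC in both, and the thioesterase Acot1 had 49 and 23 reads. Acot2 and the uncoupling protein Ucp3, named after their values were seen, show the pattern of many others, with 67.9 and 41.3 CPM and 7.34 and 5.44 CPM in the WW45cKO pair and 214 and 44.9 CPM and 35.6 and 6.99 CPM in the CT pair. In 35 of the 42 genes the CT baseline library had the highest level of the 4, beside 25.6% of all genes. The regulators Ppara (-0.89) and Ppargc1a (0.11) were not called, and among 28 glycolysis genes Eno1 was called higher (149 and 454 CPM). Close copies of Eno1 exist elsewhere, which makes it uncertain.

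Inflammatory genes were split. Of 39 chemokines and cytokines in the list 21 were measured, and 5 were called lower and 2 higher, with a median of -0.40 against 0.31 in the CT pair. These shares were 23.8% and 9.52%, beside 2.83% and 3.68% of all genes. Ccl2 (chr11:82035577-82037452), which draws monocytes through CCR2, had 32 and 6 reads (ratio 0.167, 0.0570 to 0.404) and 4 and 5 reads in the CT pair. Ccl7, a relative that uses the same receptor, had 19 and 3 reads (ratio 0.140, 0.0266 to 0.477), and the B cell chemokine Cxcl13 had 25 and 1 reads (ratio interval 0.000866 to 0.217). Ccl9 (24 and 6 reads) and Cxcl14 (27 and 6 reads) were also lower. In the CT pair Ccl9 was called lower too (34 and 5 reads). Cxcl14 had 16 and 4 reads there, Ccl7 3 and 0 reads and Cxcl13 4 and 0 reads. Over the 21 genes the response was called lower in WW45cKO than in CT for 2 and higher for 2, beside 4.62% and 3.98% of all genes. Of the 5 genes called lower, Ccl2 alone had a response called different. In all 5 the WW45cKO baseline library had the highest level of the 4 libraries, as it did in 72.7% of all genes called lower, a choice that favours it. The receptor ligand Cxcl16 was higher (14 and 35 reads). Cxcl9 was also higher, with 0 reads at baseline and 8 after TAC, a ratio of at least 1.52 by its counting interval.

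Macrophage markers had 3 calls, all lower, beside 2.83% of all genes. Of 16 macrophage and monocyte markers 1 was called lower (Itgam, the integrin CD11b, 46 and 19 reads) and 0 higher, with a median of -0.18. The CT pair had 4 higher, beside 6.04% of all genes, and a median of 0.63. The summed level of these markers was 1034 and 914 CPM in the WW45cKO pair and 459 and 677 CPM in the CT pair. Among 10 resident macrophage markers Mgl2, a lectin, had 30 and 4 reads (ratio 0.119, 0.0303 to 0.336) and Cbr2 30 and 16 reads, both called lower. The list as a whole was not lower, with a median of -0.08, 4 members above 0 and 6 below. Its summed level was 478 and 542 CPM, a ratio of 1.13 (interval 1.03 to 1.25). Socs3, the feedback inhibitor of gp130 signalling, was called lower (16 and 4 reads) and the acute phase gene Serpina3n higher (298 and 669 CPM). Of 32 interferon-induced genes 0 were called. In the antigen presentation list the invariant chain Cd74 was the 1 gene called of 16, lower, with 268 and 127 reads in the WW45cKO pair and 130.5 and 156 reads in the CT pair. It had parts of reads in a CT library. Complement had 2 higher (8%, C7 among them) and 3 lower (12%) of 25, beside 3.68% and 2.83% of all genes. Those lower were Cfd with 7 and 0 reads (ratio at most 0.617 by its interval), Cfp with 37 and 13 reads and C3ar1 with 30 and 15 reads.

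The Hippo pathway's own genes gave 1 call, a share near that of all genes (3.57% called higher, beside 3.68%). Of 28 measured components the gene called was Vgll3, a TEAD cofactor, with 5 and 18 reads. Yap1 had 82.6 and 87.6 CPM and a log2 ratio of 0.08, and Tead1 (shared reads) -0.78. Of 24 YAP and TEAD targets 4 were called higher (16.7%, beside 3.68% of all genes) and 0 lower, with a median of 0.24. The CT pair had 6 of the 24 higher and 1 lower, beside 6.04% and 4.67% of all genes, with a median of 0.18. The response was called higher in WW45cKO than in CT for 2 and lower for 2, beside 3.98% and 4.62% of all genes. Ctgf, a matricellular growth factor that is a common readout of YAP, had 354 and 852 CPM in the WW45cKO pair (ratio 2.41, 2.19 to 2.65) and 81.2 and 291 CPM in the CT pair. Cyr61, its relative, had 81.4 and 126 CPM and was not called. Myof (36 and 103 reads) and the matrix gene Ccdc80 (175 and 400 reads) were also called. The 20 members that were not called had log2 ratios between -0.87 and 1.33.

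**Figure D5:**
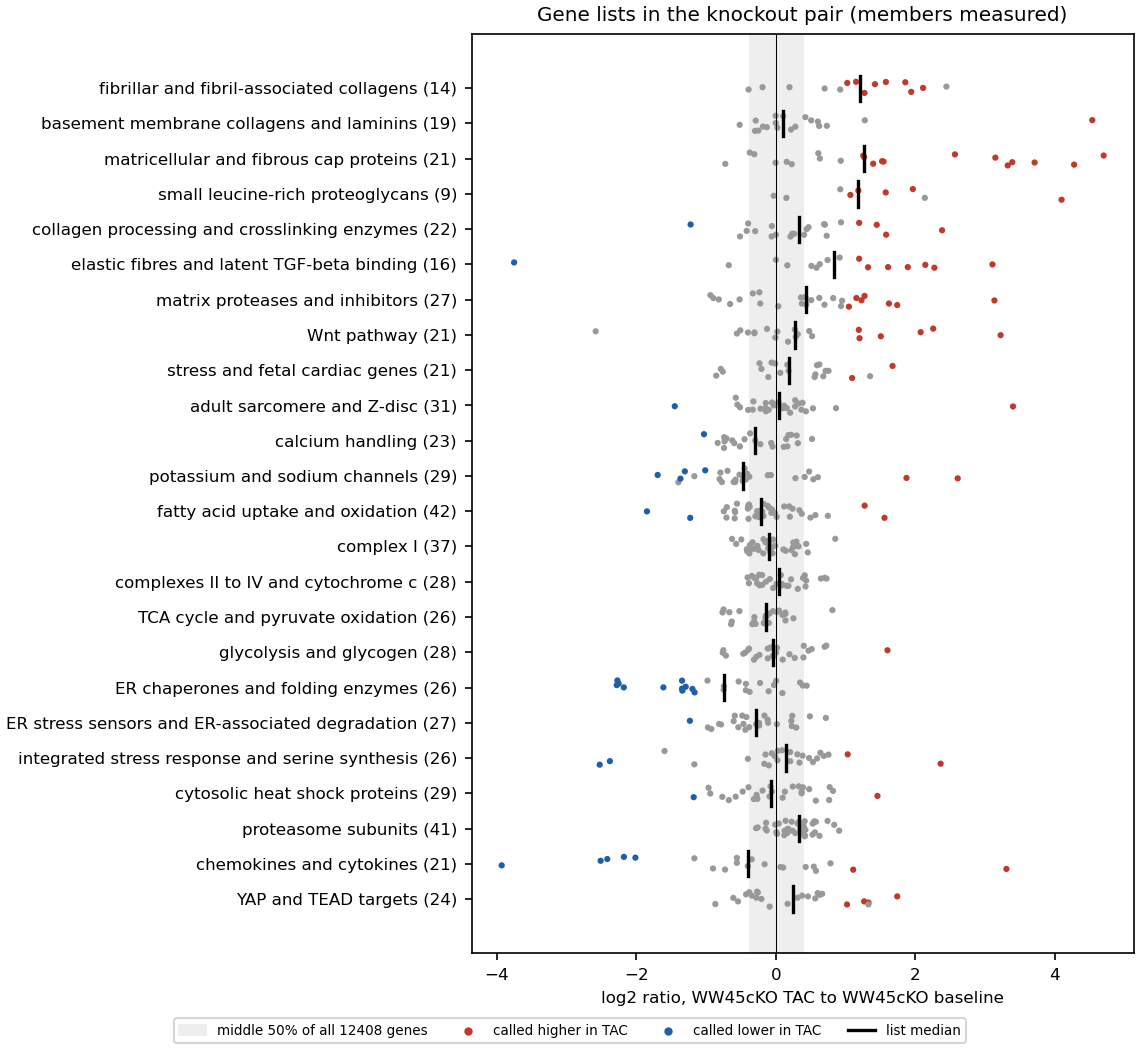
Log2 ratio after TAC to baseline in the pair labelled WW45cKO for each member of 24 gene lists (1 point a gene, number measured in brackets), red where called higher and blue where called lower, with list medians as black bars and the middle 50% of all genes shaded. The medians of the collagen, matricellular and proteoglycan lists lie between 1.18 and 1.27, and that of the ER chaperones at -0.75.

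Some cell cycle and early response genes were called higher and 0 lower. Of 45 cell cycle and replication genes 5 were called higher (11.1%, beside 3.68% of all genes), Rrm2 (1 and 14 reads, ratio interval 1.89 to 526), Cdk1 (6 and 37 reads), Kif23 (2 and 12 reads, interval 1.19 to 49.1), Top2a (7 and 21 reads) and Mcm6 (shared reads), all drivers of replication or division. The proliferation marker Mki67 had 29 and 51 reads and was not called. The summed level of this list was 512 and 542 CPM, a ratio of 1.06 (0.964 to 1.16). Of 25 immediate early genes 3 were called higher (12.0%), the phosphatase Dusp1 (20 and 66 reads), the nuclear receptor Nr4a1 (57 and 153 reads) and Klf10 (shared reads). The list's response was called higher in WW45cKO than in CT for 8 of the 25 and lower for 1, beside 3.98% and 4.62% of all genes. In the CT pair Nr4a1 had 82.7 and 53.4 CPM and Dusp1 26.3 and 31.9 CPM, and neither was called.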

How the data were processed

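RNA from mouse hearts was sequenced by the authors in 4 libraries of 1 mouse each. The authors deposited, for each library, a log2 value for 12408 genes, and the values themselves show it to be log2 CPM with 1 read added to each gene. CASAVA, HISAT2, edgeR and the mm10 build are named in the submitters' processing notes. For the counter, the annotation and the gene filter, the sources used here give nothing. The values lie on a grid whose step is 1 read, which gave back the reads, and 88.6% to 89.0% of a library's values came out whole. In 2449 genes (19.7%) some library had parts of reads (more than 0.01 from a whole number), which are shared between places and were rounded for intervals.

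The log2 ratio was taken by subtracting the deposited values. Clopper-Pearson 95% intervals of the ratio and exact Poisson 95% intervals of CPM came from the reads. The difference between the responses of the pairs used a normal approximation with 0.5 read added. Where a library of the WW45cKO pair had 0 reads, the end of the ratio's counting interval nearer to 1 is given. Libraries were grouped by the genotype and treatment in the labels. Genes named are the 15 highest and 15 lowest called genes with at least 20 reads over the pair, up to 8 called members of each list in each direction, and a fixed set of heart genes. Others are said to be named after their values were seen, and a few genes under the rule are not reported here. The members and the 68 lists were chosen with earlier results of these data known. Alternatives covered the scaling, the fold, the interval, low-read filters, the added reads and parts of reads. The calling was tested on simulated reads with counting error only and known differences planted. That test cannot show how many calls come from spread between mice. Promoters came from RefSeq (GRCm38.p6), as did gene spans for 12379 genes. Python 3.11.15, numpy 2.4.6, scipy 1.17.1, pandas 2.3.3 and matplotlib 3.10.9 were used.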

Additional observations from a re-analysis of the deposited data

Results flagged for a closer look

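These 5 genes were called in opposite directions in the 2 pairs and belong to lists or are named above, out of 25 such genes among all 12408. The difference between the genotypes rests on 1 mouse per group and on counting intervals, and was not tested over mice. Lmod3, which nucleates thin filaments, had a log2 ratio of -1.45 in the pair labelled WW45cKO (344 and 141 reads) and of 1.49 in the pair labelled CT (250 and 522 reads), a difference of -2.94 (interval -3.30 to -2.59). Lrrc52, the potassium channel subunit, had 2.61 (4 and 32 reads) and -5.04 (264 and 5 reads), a difference of 7.84 (interval 5.97 to 9.71). Pdia6, the disulfide isomerase, had -1.35 (164 and 72 reads) and 1.01 (92 and 139 reads), a difference of -2.37 (interval -2.92 to -1.82). Pdk4, the pyruvate dehydrogenase kinase, had 1.27 (196 and 534 reads) and -2.04 (1299 and 234 reads), a difference of 3.31 (interval 3.01 to 3.62). Rps24, a protein of the small ribosomal subunit, had 1.05 (569.67 and 1327.3 reads) and -1.17 (1441.7 and 475.33 reads), a difference of 2.22 (interval 2.01 to 2.43), and its parts of reads make it uncertain.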

How the results depend on the processing

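Only the fold and interval thresholds moved the counts of called genes by more than 1.5 times among the alternatives run. A 1.5-fold threshold gave 927 genes higher and 814 lower, a 3-fold threshold 180 and 135, and a 99% interval 313 and 218. Total reads as library size gave 475 and 330, median-of-ratios size factors 457 and 351, genes with at least 20 reads 381 and 272, a mean CPM of at least 5 393 and 290, 5 added reads 383 and 274, and leaving out genes with parts of reads 383 and 287. Direction was checked only for called genes of the naming rule, and none changed. These settings could hardly reverse a 2-fold difference, so this adds no support. Of 189 named genes 172 were called. Of these 172, 91 lost their call at 3-fold, 26 with the 99% interval, 17 with 5 added reads and 2 with total reads as library size. No paired analysis was possible because each group held 1 library, and for the same reason no replicate could be left out. By reads over the pair, 2.85% of genes with fewer than 10 were called, 8.50% with 10 to 20, 11.5% with 20 to 50, 5.94% with 50 to 200, 3.56% with 200 to 1000 and 5.69% above. Spread between mice, the sham operation and the exons of Sav1 were not measured.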

Other observations

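Ribosomal protein genes gave calls in both directions within the pair labelled WW45cKO, 7 higher and 4 lower of 83 (8.43% and 4.82%, beside 3.68% and 2.83% of all genes). Rpsa (312 and 948 reads), Rps28 (56 and 191 reads) and Rpl12 (137 and 324 reads) were among the higher, and Rpl27 (116 and 49 reads), Rps27a (244 and 129 reads), Rpl36 (61 and 32 reads) and Rpl30 (67 and 37 reads) the lower. Ribosomal protein genes have many near-identical copies in the genome, which makes their values uncertain. Of 76 mitochondrial ribosomal genes 2 were called lower, Mrps2 and Mrpl19, and 0 higher. The share lower, 2.63%, was near the 2.83% of all genes.

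Cytoskeletal genes were also split, with 5 higher and 2 lower of 34 (14.7% and 5.88%, beside 3.68% and 2.83% of all genes). The annexins Anxa1 (112 and 329 reads), Anxa2 (203 and 463 reads) and Anxa8 (3 and 28 reads, ratio interval 2.56 to 42.7), which bind membranes, the galectin Lgals3 (6 and 31 reads) and the keratin Krt18 (14 and 57 reads) were higher after TAC. The tubulins Tubb4b (313 and 86.5 CPM) and Tuba4a (417 and 156 CPM, parts of reads) were lower, while the CT pair had 325 and 249.6 CPM and 476 and 398 CPM. Antioxidant genes had 3 higher (9.4%) and 0 lower of 32. Those higher were the glutathione synthesis subunit Gclm (67 and 154 reads), the extracellular dismutase Sod3 (26 and 64 reads) and sulfiredoxin Srxn1. The last had 0 and 11 reads, a ratio of at least 2.23 by its interval. In the CT pair Gclm had 131 and 80 reads, Sod3 56 and 37 reads and Srxn1 13 and 4 reads, and none of the 3 was called. Growth factors and their receptors had 3 higher (Pdgfrl, the heparin-binding Ptn and Hbegf) and 1 lower (Fgf16) of 32, or 9.4% and 3.1%.

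Among the highest and lowest genes outside these groups, the thyroid hormone carrier Ttr had 1 and 25 reads (ratio interval 3.64 to 913) in the WW45cKO pair and 21 and 14 reads in the CT pair. The cold-inducible RNA-binding protein Rbm3 had 7 and 74 reads and 27 and 47 reads, the kallikrein Klk8 4 and 42 reads and 32 and 45 reads, and Fibin 11 and 96 reads and 22 and 109 reads. Lower were the Nogo receptor Rtn4r (30 and 3 reads, ratio interval 0.0174 to 0.286, beside 51 and 15 reads in CT), the mitochondrial creatine kinase Ckmt1 (32 and 5 reads beside 4 and 5 reads) and the integrin Itgb6 (40 and 9 reads beside 32 and 35 reads). The hemoglobin genes Hbb-bs and Hbb-b1, looked at after their values were seen, carried identical reads (1280 and 2070 reads), as did Hbb-bt and Hbb-b2 (1223 and 1949 reads), so the 7 erythroid markers hold 5 separate values.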
